A study of Mus musculus with 12 samples.

Results

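The genes described are 10 components of the Notch pathway in mouse adult fibroblasts (MAFs): the receptors Notch1, Notch2, Notch3 and Notch4, the ligands Jag1, Jag2 and Dll1, and the HES/HEY transcription factors Hes1, Hey1 and Hey2. They were taken by symbol from the 49315 genes of the count tables, and all 10 were found. RNA-seq counts came from 12 libraries in 4 groups of 3: control WT, senescent WT, control KO and senescent KO. MAFs are primary cells, isolated here from the ears of adult female mice, either C57BL/6 (WT) or Bmal1-/- (KO, with the gene of the circadian clock factor BMAL1 knocked out). Senescence was induced with 20 Gy of X-rays followed by further weeks in culture, and the controls were sham irradiated. The study does not say how long the controls were cultured, so time in culture may differ between control and senescent groups. All groups were grown in 3% oxygen, treated with 100 nM dexamethasone, a glucocorticoid that synchronises circadian clocks, and collected 12 h later. The labels do not say whether replicates came from separate mice, so the p-values measure the spread between these libraries, which may be technical.

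Notch signalling passes between touching cells. Jagged and Delta-like ligands on 1 cell bind a Notch receptor on its neighbour, ADAM proteases and then γ-secretase cut the receptor, and the freed intracellular domain enters the nucleus. There it joins the DNA-binding protein RBPJ and Mastermind-like coactivators and switches on repressors of the HES and HEY families. In skin and vessels the pathway is known for its part in keratinocyte differentiation and in the mural cells that wrap vessels, where NOTCH3 is the prominent receptor, whereas NOTCH4 is best known from endothelium.

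Counts are given as CPM, counts scaled to a common library size with TMM factors (trimmed mean of M-values). Library totals were 23923030 to 31736083 before this scaling. With the TMM factors applied, 3 counts, the detection floor used here, equalled 0.101 to 0.135 CPM. A floor of this kind covers counting error only. The fibroblast label was checked first. All 10 fibroblast markers (Col1a1, Col1a2, Col3a1, Col6a1, Dcn, Lum, Pdgfra, Thy1, Vim and Fn1) exceeded 1 CPM in every group, but 8 of 9 chondrocyte markers did so in control cells too, summing to 7581 to 9430 CPM in control WT and 5008 to 6896 CPM in control KO libraries. In senescent cells that sum was 2072 to 2396 CPM in WT and 662 to 767 CPM in KO libraries. The cultures were therefore not free of cartilage transcripts, and in bulk RNA fewer cells of a type and less RNA per cell cannot be told apart. Arntl, the annotated name of Bmal1, was at 29.8 to 33.2 CPM in control WT, 35.2 to 37.3 CPM in senescent WT, 11.8 to 15.2 CPM in control KO and 25.3 to 27.4 CPM in senescent KO libraries. It was thus below WT in both states, by 2.40-fold in control cells (QL adjusted p 2.00e-09) but only by 1.36-fold in senescent cells (0.000329). Arntl rose 2.02-fold with senescence in KO cells (1.96e-09) and 1.15-fold in WT cells (0.0415). Reads counted to Arntl therefore remained in the KO libraries, whereas the paper reports that its KO cells had lost the Bmal1 transcript. Whether the reads cover the deleted part was not tested. Cdkn1a, which encodes the cell cycle inhibitor p21, was at 152 to 177 CPM in control WT, 604 to 642 CPM in senescent WT, 208 to 238 CPM in control KO and 638 to 705 CPM in senescent KO libraries.

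Promoter sequences are shown for the members whose levels moved most in 1 or both genotypes (Jag2 and Notch3) and for those whose promoter window held a motif that was searched (Notch4 and Hey2). The windows run from 250 bases before to 50 bases after the RefSeq start (build GRCm38.p6). They lie at chr12:112929446-112929745 on the minus strand (Jag2), chr17:32166841-32167140 on the minus strand (Notch3), chr17:34564045-34564344 on the plus strand (Notch4) and chr10:30842734-30843033 on the minus strand (Hey2). Each is printed 5′ to 3′ on the strand of its gene, and capitals mark the motifs found on either strand.
Jag2: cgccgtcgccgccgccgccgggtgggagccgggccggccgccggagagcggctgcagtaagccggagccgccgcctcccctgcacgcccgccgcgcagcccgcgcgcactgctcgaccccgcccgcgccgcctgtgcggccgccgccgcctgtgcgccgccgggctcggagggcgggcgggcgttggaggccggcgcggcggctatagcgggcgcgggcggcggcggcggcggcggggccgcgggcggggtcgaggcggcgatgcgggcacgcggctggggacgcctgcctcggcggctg
Notch3: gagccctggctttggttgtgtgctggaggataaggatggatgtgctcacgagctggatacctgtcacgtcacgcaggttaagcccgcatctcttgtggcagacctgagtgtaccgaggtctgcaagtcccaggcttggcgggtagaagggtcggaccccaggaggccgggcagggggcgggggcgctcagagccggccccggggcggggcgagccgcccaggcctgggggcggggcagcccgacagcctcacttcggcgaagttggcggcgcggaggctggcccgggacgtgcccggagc
Notch4: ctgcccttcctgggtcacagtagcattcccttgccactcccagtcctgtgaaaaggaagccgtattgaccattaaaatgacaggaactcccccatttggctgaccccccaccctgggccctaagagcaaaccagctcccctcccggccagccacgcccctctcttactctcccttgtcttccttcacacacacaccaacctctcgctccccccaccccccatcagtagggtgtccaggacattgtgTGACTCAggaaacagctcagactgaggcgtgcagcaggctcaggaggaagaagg
Hey2: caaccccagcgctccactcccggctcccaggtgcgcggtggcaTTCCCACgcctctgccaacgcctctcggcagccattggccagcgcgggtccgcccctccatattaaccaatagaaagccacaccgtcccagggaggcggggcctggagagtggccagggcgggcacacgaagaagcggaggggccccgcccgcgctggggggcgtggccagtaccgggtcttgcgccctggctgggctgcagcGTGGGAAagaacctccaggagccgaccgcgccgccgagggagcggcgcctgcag

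The motifs searched were GTGGGAA, the core bound by RBPJ, CACGTG, the E-box bound by BMAL1 with its partner CLOCK, and TGACTCA, a form of the AP-1 site. Windows were available for 8 of the members, with a pair of starts for Dll1, which gave 9 windows. Hes1 and Hey1 had no entry. Positions are those of the first base of a match. Hey2 held the RBPJ core from 207 bases (as TTCCCAC) and again from 4 bases before its start. It was the only one of the 9 windows with it, against 6.38% of all 32851 promoter windows. Notch4 held the AP-1 site from 4 bases before its start, the only one of the 9, against 5.20% of all windows. Both matches that begin 4 bases before a start run across it. None of the 9 held CACGTG, which 7.15% of all windows did. The Jag2 window was 86.0% G or C with 63 CG dinucleotides and the Notch4 window 58.3% with 5, beside a GC content of 53.8% over all windows. These matches describe letters only and were not tied to binding.

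All 10 members passed the filter on low counts and were tested with 17416 genes by edgeR's quasi-likelihood (QL) test, with p-values adjusted over all of these. "Rose" and "fell" are used of genes with an adjusted p under 0.05. In WT cells 6 of 10 rose with senescence (Notch3, Jag1, Jag2, Dll1, Hes1 and Hey1) and 1 fell (Hey2), beside 29.2% and 27.0% of all genes, so that 7 passed beside 56.2%. In KO cells 5 rose (Notch3, Notch4, Jag2, Hes1 and Hey1) and 1 fell (Notch1), beside 28.5% and 28.6%, so that 6 passed beside 57.1%. Control and senescent libraries did not overlap for 7 members in WT cells (beside 63.2% of all genes) and for 6 in KO cells (beside 61.6%). The 4 members Notch3, Jag2, Hes1 and Hey1 rose in both genotypes, a count for which the share of all genes was not computed. The median log2 fold change of the members was 0.48 in WT and 0.54 in KO cells, and that of all genes was 0.02 and −0.00. With the further requirement of a log2 fold change over 1 in size, the study's own limit for a differentially expressed gene, 3 members were higher and 1 was lower in WT cells (beside 11.6% and 5.9% of all genes) and 1 was higher and 0 lower in KO cells (beside 11.2% and 7.58%). In either direction 17.4% and 18.8% of all genes were called.

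The response to senescence differed between genotypes for 4 members, as tested by the interaction, the KO log2 fold change minus the WT one. It was lower in KO cells for Notch1, Notch3 and Jag1 (beside 11.7% of all genes) and higher for Notch4 (beside 9.24%), 4 members beside 20.9% in either direction. None of the 4 exceeded 1 in size, as 1.15% of all genes did upwards, 2.51% downwards and 3.66% in all. Between genotypes, 1 member (Notch3) was higher in control KO than in control WT cells, beside 8.07% of all genes, and no member was lower by the QL test, beside 4.96% of all genes (13.0% in either direction). No member was lower at an unadjusted p under 0.05 either. The genotypes did not overlap for 5 members in control cells, beside 25.9% of all genes, and no member was past a log2 fold change of 1, as 1.36% of all genes were upwards, 1.18% downwards and 2.54% in all. In senescent cells 3 members (Notch1, Jag1 and Dll1) were lower in KO than in WT cells, beside 11.8%, and none was higher by the QL test, where 11.9% of all genes were (23.7% in either direction). The genotypes did not overlap for 7 members in senescent cells, beside 42.0% of all genes. At an unadjusted p under 0.05, Notch4, Jag2 and Hey2 were higher in senescent KO cells, but none passed after adjustment (QL adjusted p 0.0694, 0.141 and 0.140). The share of all genes at that looser limit was not computed, and the Hey2 libraries overlapped. Each genotype came from its own count table, so genotype and any difference in the handling of the tables cannot be told apart in these last comparisons. Comparisons that share a group also share its libraries and are not independent.

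**Figure D1:**
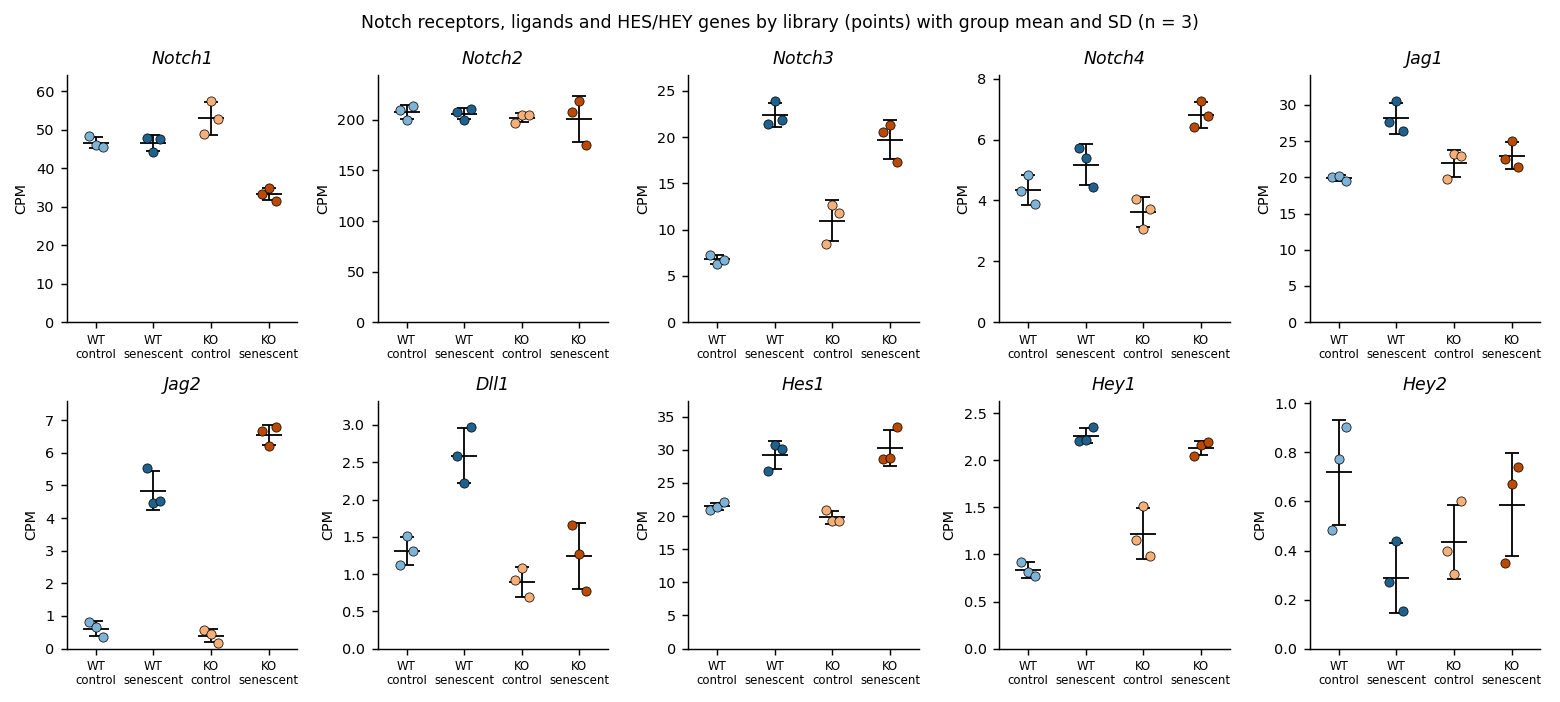
Levels of the 10 genes in CPM (y axes, each starting at 0) in the 12 libraries, grouped as control WT, senescent WT, control KO and senescent KO on the x axes. Points are libraries, and the bar and whiskers are the mean and SD of 3. Jag2 in senescent cells of both genotypes (4.47 to 6.78 CPM) lies far above its control levels (0.172 to 0.804 CPM), and Notch1 is lowest in the senescent KO libraries (31.6 to 34.8 CPM).

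**Figure D2:**
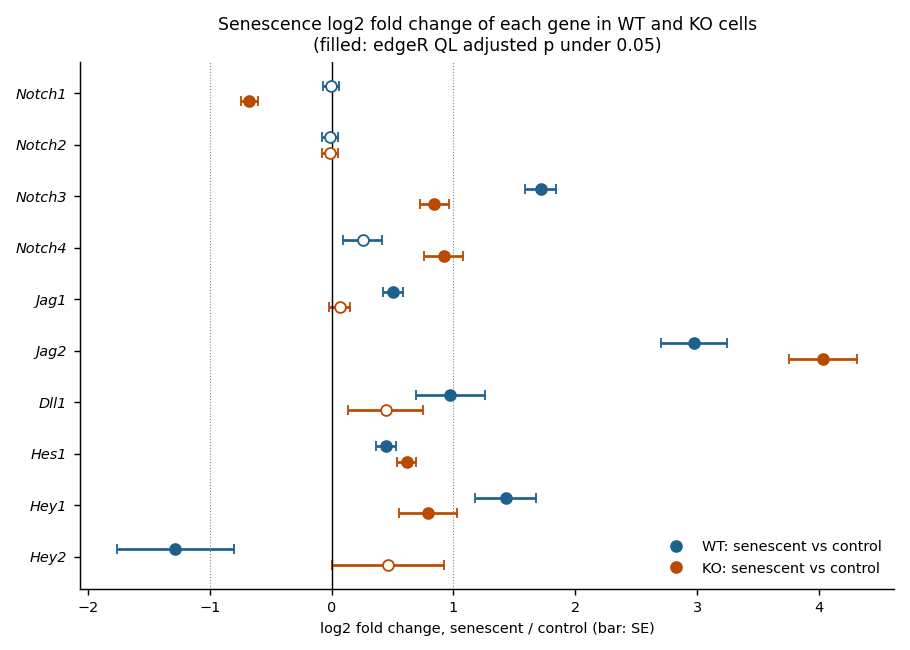
Log2 fold change of senescent against control cells (x axis) for each gene, in WT (blue) and KO cells (orange). Bars are the SE, filled points have a QL adjusted p under 0.05, and dotted lines mark a log2 fold change of 1 in size. Notch1, Notch3, Notch4 and Jag1 differ between the genotypes by the interaction test, and Notch2 sits at 0 in both.

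Among the receptors, Notch2 was the most abundant and the least changed. Notch2 (ENSMUSG00000027878, GRCm38 chromosome 3, 98013527 to 98150361, plus strand) was at 209.8, 200.2 and 213 CPM in control WT, 208, 200 and 210.4 CPM in senescent WT, 197, 204.5 and 204.5 CPM in control KO and 208, 218.5 and 175 CPM in senescent KO replicates 1 to 3. All 4 groups overlapped, and the single low value belonged to senescent KO replicate 3. Its log2 fold change with senescence was −0.01 (SE 0.06, QL adjusted p 0.889) in WT and −0.01 (SE 0.06, 0.898) in KO cells. In senescent KO replicate 3 the 2670 genes with at least 8 kb of annotated exon deviated from their group mean by a median of −0.07 on the log2 scale, against 0.02 for shorter genes. Control KO replicate 1 deviated likewise (−0.04 against 0.02) and senescent KO replicate 1 the other way (0.05 against −0.01). All 4 receptors have over 8 kb of exon. Leaving out any 1 library, the KO change stayed between −0.73 and −0.62 for Notch1, between 0.68 and 0.96 for Notch3 and between 0.81 and 1.01 for Notch4, and passed each time. Without senescent KO replicate 3 the KO change of Notch2 was 0.08.

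Notch1 (ENSMUSG00000026923, chromosome 2, 26457903 to 26516663, minus strand) fell in KO cells only by the test within each genotype, and the interaction separated the genotypes. Its level was 48.4, 46.1 and 45.5 CPM in control WT and 47.9, 44.2 and 47.7 CPM in senescent WT libraries. In KO cells it was 48.8, 57.5 and 52.8 CPM in control and 33.4, 34.8 and 31.6 CPM in senescent libraries. The senescent KO libraries were thus below all 9 others, and the WT groups overlapped. The log2 fold change was −0.00 (SE 0.07, QL adjusted p 0.968) in WT and −0.67 (SE 0.07, 2.37e-08) in KO cells, with an interaction of −0.67 (SE 0.09, 6.60e-05). Senescent KO cells were lower than senescent WT cells, with a difference of −0.49 (SE 0.07, 1.88e-05), while the difference between the control groups was 0.18 (SE 0.07, 0.0744) although these libraries did not overlap. Without control KO replicate 1 that last value was 0.24 (0.0187, in a range of 0.0187 to 0.348 over the alternatives). Of 9 chondrocyte markers 8 were tested, and all 8 fell in both genotypes, also in WT cells, where Notch1 did not fall. A lower response in KO cells was found for 7 of the 8. Of 10 fibroblast markers 5 had a lower response in KO cells and 1 a higher one. The part of cells of either type in the Notch1 result was not tested.

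Notch3 (ENSMUSG00000038146, chromosome 17, 32120820 to 32166852, minus strand) rose in both genotypes, and from a higher start in KO cells. It was at 7.31, 6.35 and 6.77 CPM in control WT, 21.4, 23.9 and 21.9 CPM in senescent WT, 8.44, 12.6 and 11.8 CPM in control KO and 20.5, 21.4 and 17.3 CPM in senescent KO libraries. The order of the groups was control WT, control KO, senescent KO and senescent WT, with no overlap between any pair, but the difference between the senescent groups did not pass (−0.18, SE 0.12, QL adjusted p 0.276). The rise was 3.29-fold in WT (1.72 on the log2 scale, SE 0.13, 3.56e-10) and 1.79-fold in KO cells (0.84, SE 0.12, 4.87e-06). The interaction was −0.87 (SE 0.18, 0.0015), and control KO cells were higher than control WT cells by 0.69 (SE 0.13, 0.00122). Of 8 mural cell markers 6 were tested, and in each genotype 5 of these rose with senescence and 1, Cspg4, fell. By the interaction 3 of the 6 had a higher response in KO cells and 1 a lower one, where that of Notch3 was lower. The summed level of the list was 536 to 560 CPM in control WT, 298.5 to 315 CPM in senescent WT, 488 to 544 CPM in control KO and 353 to 355 CPM in senescent KO libraries, most of it from Cspg4. Rgs5, a marker of pericytes, averaged 1.44 CPM in control and 5.71 CPM in senescent WT cells, and 1.47 and 13.5 CPM in the KO groups, while Higd1b was at or under 3 counts in every library. The part of such cells in the rise of Notch3 was not tested.

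Notch4 (ENSMUSG00000015468, chromosome 17, 34564268 to 34588503, plus strand), whose promoter window held the AP-1 site, was the scarcest receptor. It was at 4.30, 4.84 and 3.88 CPM in control WT and 5.71, 5.38 and 4.43 CPM in senescent WT libraries, which overlapped, and at 4.04, 3.06 and 3.73 CPM in control KO and 6.40, 7.26 and 6.78 CPM in senescent KO libraries, which did not. It rose 1.89-fold in KO cells (0.92 on the log2 scale, SE 0.16, QL adjusted p 4.55e-05), and its WT change was 0.25 (SE 0.16, 0.187). The interaction of 0.67 (SE 0.23, 0.0412) rested on little margin: its adjusted p ranged from 0.0212 to 0.126 over the alternatives and missed the threshold on leaving out any of 8 libraries, namely control WT replicate 1 or 2, senescent WT replicate 2 or 3, control KO replicate 2 or 3, or senescent KO replicate 2 or 3. Every senescent KO library was also above every senescent WT library in Notch4, a difference of 0.39 (SE 0.15, 0.0694) that passed with only the 6 libraries compared (0.0408), DESeq2 (0.042) and limma-voom (0.0414), in a range of 0.0408 to 0.264 over the alternatives. Of 10 endothelial markers 7 were tested, of which 1 rose in WT cells, and 2 rose and 1 fell in KO cells. Their sum was 4.83 to 9.69 CPM in control WT, 9.44 to 10.8 CPM in senescent WT, 8.01 to 9.31 CPM in control KO and 8.50 to 12.1 CPM in senescent KO libraries, and Tie1 was at or under 3 counts in every KO library. Their part in the Notch4 result was not tested.

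Divided by annotated exon length, which allows levels of different genes to be compared, the receptors ranked Notch2, Notch1, Notch3 and Notch4 in control WT and control KO cells, and in senescent KO cells Notch3 came level with Notch1. In control WT libraries Notch2 made up 80.5% ± 0.782 of the summed receptor CPM per kb, Notch1 13.7% ± 0.479, Notch3 3.52% ± 0.181 and Notch4 2.25% ± 0.309 (SD, n = 3). In senescent WT cells Notch2 was at 74.1% ± 0.662, Notch3 at 10.8% ± 0.827, Notch1 at 12.7% ± 0.357 and Notch4 at 2.49% ± 0.337. The shares of Notch1, Notch2 and Notch3 did not overlap between control and senescent WT libraries, Notch1 and Notch2 being lower and Notch3 higher in the latter. In KO cells Notch3 went from 5.57% ± 0.951 to 10.1% ± 0.0819, Notch1 from 15.3% ± 0.751 to 9.69% ± 0.589 and Notch4 from 1.85% ± 0.318 to 3.51% ± 0.381. Notch1 and Notch3 overlapped in share in senescent KO libraries (9.32% to 10.4% and 10.0% to 10.2%). The sum itself overlapped between the groups of each genotype in KO cells only, at 23.2 to 24.3 and 25.3 to 26.1 CPM per kb in the control and senescent groups of WT cells and at 23.3 to 24.9 and 21.4 to 26.2 CPM per kb in KO cells. Shares in a composition move together, so a larger share of Notch3 lowers the others.

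**Figure D3:**
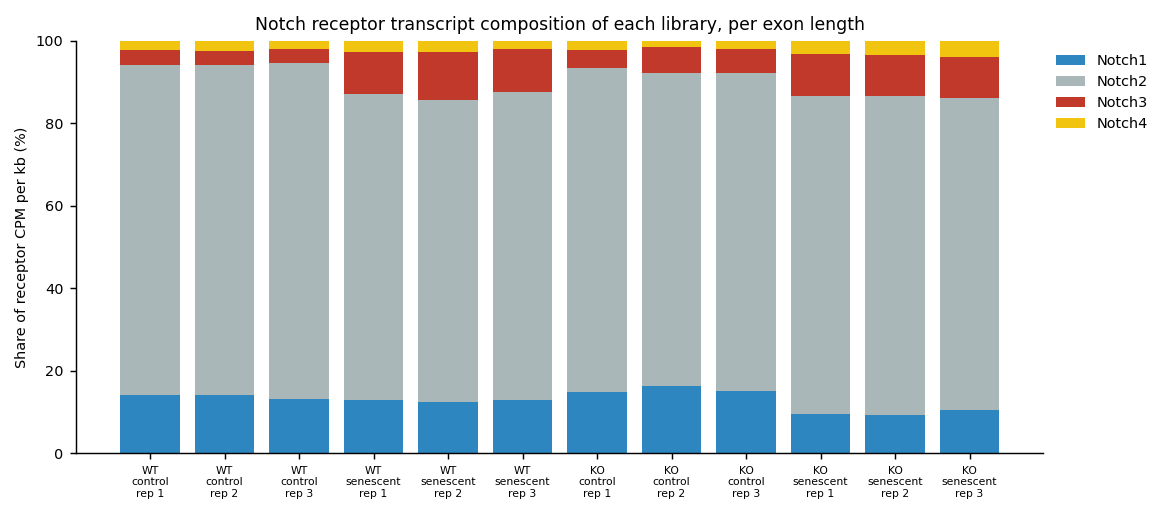
Share of each receptor (stacked, y axis in percent) in the summed CPM per kb of the 4 Notch receptors, for each of the 12 libraries on the x axis. Notch2 makes up most of every library, Notch3 widens from 3.38% to 3.72% in control WT to 10.2% to 11.7% in senescent WT libraries, and Notch1 is narrowest in senescent KO libraries (9.32% to 10.4%).

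The ligands showed the largest change of any member. Jag2 (ENSMUSG00000002799, chromosome 12, 112907819 to 112929776, minus strand) encodes Jagged-2. It was at 0.804, 0.651 and 0.361 CPM in control WT and 0.560, 0.437 and 0.172 CPM in control KO libraries, from only 4 to 20 counts each. In senescent cells it was at 5.54, 4.47 and 4.51 CPM in WT and 6.67, 6.20 and 6.78 CPM in KO libraries, from 117 to 201 counts. Every senescent library was above every control library. The rise was 7.87-fold in WT (2.98 on the log2 scale, SE 0.27, QL adjusted p 6.02e-09) and 16.4-fold in KO cells (4.03, SE 0.28, 8.95e-11), and over all alternatives the log2 value stayed between 2.73 and 3.23 in WT and between 3.71 and 4.34 in KO cells. The interaction was 1.06 (SE 0.42, 0.0819). It did not pass, but passed with DESeq2 (0.0454), without control WT replicate 3 (0.0331) and without control KO replicate 1 (0.032), in a range of 0.032 to 0.271 over the alternatives. Every senescent KO library was above every senescent WT library in Jag2, a difference of 0.43 (SE 0.21, 0.141) that passed with only the 6 libraries compared (0.0269) and with limma-voom (0.0417), in a range of 0.0269 to 0.336 over the alternatives. Of 9 keratinocyte markers 5 were tested, of which 4 rose in each genotype, and 1 fell in KO cells. Their sum was 10.7 to 16.1 CPM in control WT, 26.8 to 30.6 CPM in senescent WT, 11.7 to 14 CPM in control KO and 20.2 to 22.8 CPM in senescent KO libraries. Krt1 and Krt14 were at or under 3 counts in each senescent WT library, and Dsg3 was so in every library. The part of keratinocytes in the Jag2 result was not tested.

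Jag1 (ENSMUSG00000027276, chromosome 2, 137081456 to 137116644, minus strand), which encodes Jagged-1, was the most abundant of the ligands and rose in WT cells. It was at 20.0, 20.2 and 19.5 CPM in control WT and 27.7, 30.5 and 26.3 CPM in senescent WT libraries, without overlap. In KO cells it was at 19.8, 23.2 and 22.9 CPM in control and 22.5, 25.1 and 21.4 CPM in senescent libraries, which overlapped. The log2 fold change was 0.50 (SE 0.08, QL adjusted p 3e-05) in WT and 0.07 (SE 0.08, 0.524) in KO cells, and the interaction of −0.44 (SE 0.12, 0.0121) passed. Senescent KO cells were lower than senescent WT cells, with a difference of −0.30 (SE 0.08, 0.012), which missed the threshold without senescent WT replicate 2 (0.0922) or senescent KO replicate 3 (0.0702), in a range of 0.00512 to 0.0922 over the alternatives.

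Dll1 (ENSMUSG00000014773, chromosome 17, 15367354 to 15376872, minus strand), a Delta-like ligand, was low in all groups. It was at 1.13, 1.51 and 1.31 CPM in control WT, 2.58, 2.22 and 2.97 CPM in senescent WT, 0.920, 1.08 and 0.687 CPM in control KO and 1.66, 1.27 and 0.776 CPM in senescent KO libraries, from 16 to 77 counts. The senescent WT libraries were above all others. It rose 1.97-fold in WT cells (0.98 on the log2 scale, SE 0.28, QL adjusted p 0.00549), and the KO change was 0.44 (SE 0.31, 0.227). The interaction was −0.53 (SE 0.42, 0.406), so a difference in response was not shown. In senescent cells Dll1 was 2.10-fold lower in KO than in WT cells (−1.07, SE 0.28, 0.00728), the only member that passed the test with a log2 fold change over 1 in size between genotypes, where 2.19% of all genes were called lower, 1.29% higher and 3.48% in all. Without senescent KO replicate 3 it was −0.82 (0.0578, the highest of the alternatives, the lowest being 0.00329). Whether counting used strand is not given in the sources used here, so reads of overlapping genes cannot be told apart. Exons of Dll1 overlap A930024N18Rik (1 to 13 counts per library), those of Notch1 overlap 0610009E02Rik and Gm13568, those of Notch2 overlap Gm42820 and those of Notch3 overlap Gm17276, none of which exceeded 2.06 CPM.

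Of the nuclear targets, Hes1 was the most abundant and rose in both genotypes. Hes1 (ENSMUSG00000022528, chromosome 16, 30064384 to 30067796, plus strand) encodes a repressor known to oscillate with its own negative feedback. It was at 21.0, 21.4 and 22.1 CPM in control WT, 26.8, 30.8 and 30.1 CPM in senescent WT, 20.9, 19.3 and 19.2 CPM in control KO and 28.7, 28.8 and 33.4 CPM in senescent KO libraries. Every senescent library was above every control library. The rise was 1.36-fold in WT (0.45 on the log2 scale, SE 0.08, QL adjusted p 6.09e-05) and 1.53-fold in KO cells (0.62, SE 0.08, 1.02e-06), with an interaction of 0.17 (SE 0.11, 0.317). The difference between genotypes did not pass in control cells (−0.12, SE 0.08, 0.398), where the libraries did not overlap, or in senescent cells (0.05, SE 0.08, 0.676), where they did.

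Hey1 (ENSMUSG00000040289, chromosome 3, 8663359 to 8667256, minus strand) rose from a much lower level. It was at 0.924, 0.814 and 0.767 CPM in control WT, 2.21, 2.22 and 2.35 CPM in senescent WT, 1.16, 1.51 and 0.987 CPM in control KO and 2.04, 2.16 and 2.19 CPM in senescent KO libraries. Senescent libraries were again above all control libraries. The rise was 2.69-fold in WT (1.43 on the log2 scale, SE 0.25, QL adjusted p 5.56e-05) and 1.73-fold in KO cells (0.79, SE 0.24, 0.00745). Its interaction was −0.64 (SE 0.35, 0.218).

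Hey2 (ENSMUSG00000019789, chromosome 10, 30832359 to 30842801, minus strand), with the RBPJ core at 2 positions in its promoter window, was the least abundant member per kb in the senescent groups and rose in neither genotype by the test. It was at 0.482, 0.773 and 0.902 CPM in control WT, 0.272, 0.437 and 0.154 CPM in senescent WT, 0.400, 0.303 and 0.601 CPM in control KO and 0.347, 0.673 and 0.742 CPM in senescent KO libraries, from 4 to 22 counts. The senescent WT libraries were below the control WT libraries, and the KO groups overlapped. It fell 2.43-fold in WT cells (−1.28 on the log2 scale, SE 0.48, QL adjusted p 0.0278), a call that was lost without control WT replicate 2 (0.0687) or 3 (0.0914) or without senescent WT replicate 1 (0.0731) or 3 (0.115), in a range of 0.0174 to 0.115 over the alternatives. The KO change was 0.46 (SE 0.46, 0.412) and the interaction 1.74 (SE 0.67, 0.0687), which passed without senescent KO replicate 1 (0.0438, in a range of 0.0438 to 0.167). Per kb of exon, Hes1 in senescent WT cells stood at 14.4 ± 1.05 CPM per kb, Hey1 at 0.692 ± 0.0242 and Hey2 at 0.0627 ± 0.0310 (SD, n = 3).

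The rest of the pathway was followed in a list of 49 other genes, of which 40 were tested and 9 (Dll3, Dll4, Mfng, Nrarp, Hes2, Hes3, Hes5, Hes7 and Heyl) were too low, at no more than 0.574 CPM in any library. In WT cells 13 of the 40 rose and 13 fell with senescence, and in KO cells 7 rose and 19 fell, with 6 rising and 11 falling in both. The counts per genotype stand beside 29.2% and 27.0% of all genes in WT cells, which the WT counts are near, and 28.5% and 28.6% in KO cells. For the counts in both genotypes the share of all genes was not computed. The median log2 fold change was 0.00 in WT and −0.15 in KO cells. The interaction passed for 10 genes, of which 2 responded more positively and 8 more negatively in KO cells, beside 9.24% and 11.7% of all genes. Between genotypes, 4 were higher in control KO cells (beside 8.07% of all genes), and in senescent cells 2 were higher and 5 lower in KO (beside 11.9% and 11.8%). Past a log2 fold change of 1, 1 gene rose and 2 fell in each genotype, and 1 had a lower response in KO cells. Of all genes, 11.6% rose and 5.9% fell past this limit in WT cells, and 11.2% and 7.58% in KO cells. A lower response in KO cells past this limit was found for 2.51% of all genes.

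Past a log2 fold change of 1, the genes of cleavage and glycosylation held Aph1c in WT cells and Lfng in both genotypes. All 10 genes of receptor processing (the ADAM proteases, furin and γ-secretase subunits) passed in WT cells, 5 higher and 5 lower, and 6 passed in KO cells, 1 higher and 5 lower, beside 56.2% and 57.1% of all genes in either direction. Lfng, the fringe glycosyltransferase that tunes which ligand a receptor answers to, fell in both genotypes, with log2 fold changes of −1.22 (SE 0.16, QL adjusted p 1.97e-06) in WT and −1.08 (SE 0.16, 6.11e-06) in KO cells. Its level was 5.25 to 6.05 CPM in control WT, 2.22 to 2.66 CPM in senescent WT, 6.02 to 7.85 CPM in control KO and 3.12 to 3.41 CPM in senescent KO libraries, with senescent below control throughout. Aph1c, a γ-secretase subunit with a close copy in Aph1b, was at 0.522 to 0.936 CPM in control WT and 1.22 to 1.85 CPM in senescent WT libraries (1.03 on the log2 scale, SE 0.39, QL adjusted p 0.0295). That call was lost without control WT replicate 1 or 3 or senescent WT replicate 2, in a range of 0.0133 to 0.132 over the alternatives, and its counts are uncertain because only uniquely mapped reads were counted.

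Among ubiquitin ligases and adaptors, Neurl1b, which encodes a neuralized ligase that acts on ligands, fell most. It was at 6.79 to 7.99 CPM in control WT, 1.97 to 2.51 CPM in senescent WT, 10.2 to 11.6 CPM in control KO and 0.911 to 1.42 CPM in senescent KO libraries. The groups did not overlap in any pair, and the log2 fold change was −1.73 (SE 0.17, QL adjusted p 1.55e-08) in WT and −3.16 (SE 0.18, 2.81e-12) in KO cells, with an interaction of −1.43 (SE 0.25, 0.000401). Dtx4, a Deltex-family ligase, rose in KO cells, from 3.72 to 5.79 CPM in control to 10.1 to 10.9 CPM in senescent libraries (1.20, SE 0.15, 6.67e-07). In WT cells it was at 4.31 to 5.14 and 5.24 to 6.22 CPM (0.33, SE 0.15, 0.0728), and the interaction of 0.86 (SE 0.22, 0.00683) passed.

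Rbpj, the DNA-binding partner of all Notch receptors, was singled out after its values were seen, because it rose in both genotypes and more in KO cells. It was at 114 to 128 CPM in control WT, 178 to 182 CPM in senescent WT, 119.7 to 130.5 CPM in control KO and 235 to 243 CPM in senescent KO libraries. The rise was 0.59 (SE 0.05, QL adjusted p 4.76e-09) in WT and 0.94 (SE 0.05, 2.37e-12) in KO cells, and the interaction was 0.35 (SE 0.07, 0.00201). The 11 nuclear cofactors as a list, Rbpj included, held 3 genes that rose and 4 that fell in WT cells and 2 that rose and 6 that fell in KO cells. The WT counts are near the shares of all genes (29.2% and 27.0%), and in KO cells these were 28.5% and 28.6%.

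**Figure D4:**
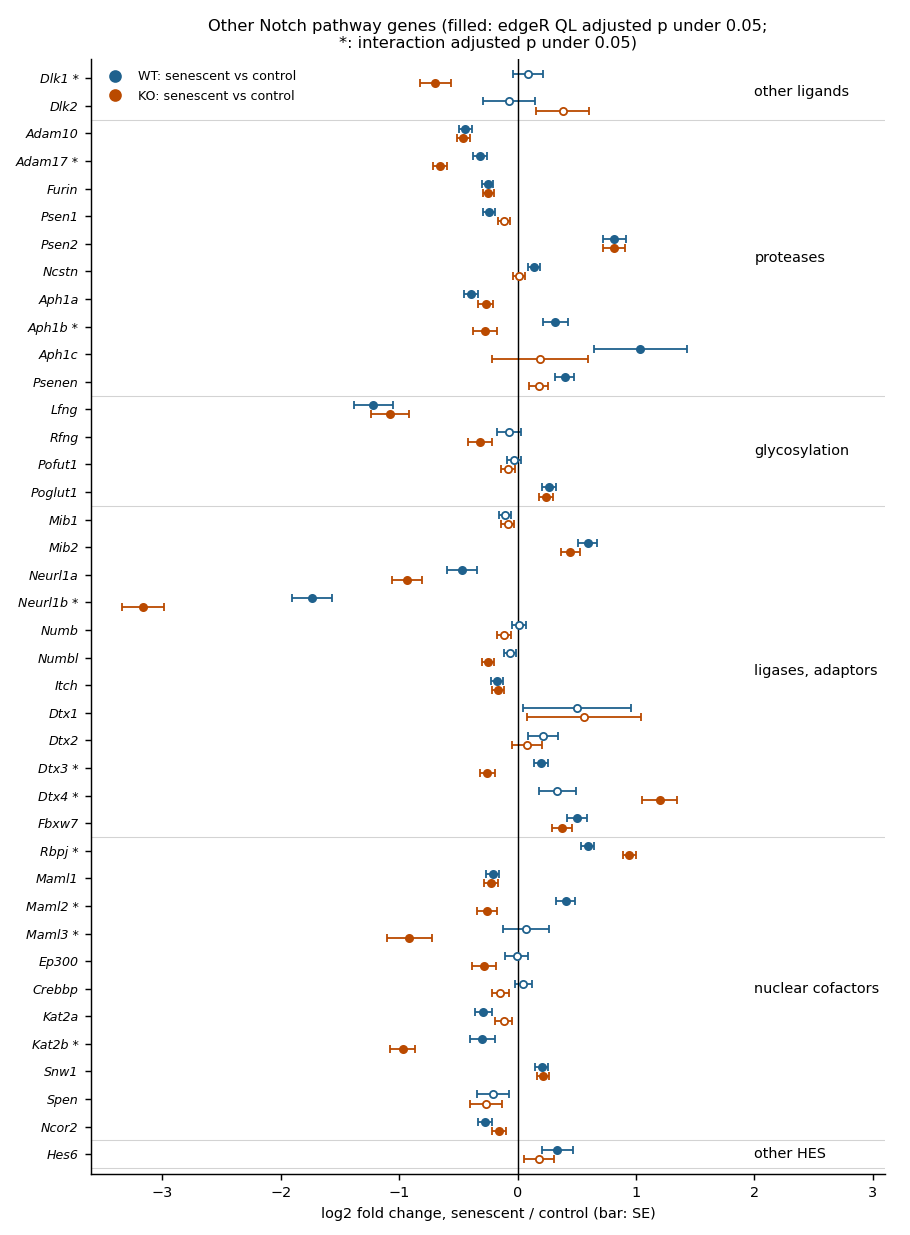
Log2 fold change of senescent against control cells (x axis) for the 40 tested genes of the other Notch pathway list, grouped by role, in WT (blue) and KO cells (orange). Bars are the SE, filled points have a QL adjusted p under 0.05 and asterisks mark an interaction adjusted p under 0.05. Neurl1b lies farthest left (−1.73 in WT and −3.16 in KO) and Dtx4 farthest right in KO cells (1.20).

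Genes with the most similar pattern were sought for the 5 members that passed with a log2 fold change over 1 in size in any comparison. The measure was the root-mean-square difference of log2 CPM over the 12 libraries, each gene centred on its own mean, limited to genes averaging 5 CPM or more. A prior count of 2 was added before taking logs, which shrinks differences at low counts. For Notch3 these were Lpin1 (0.15) and Dkk3 (0.15), where Notch3 itself spread by 0.70 around its mean. Lpin1 followed the same order of groups, at 16.7, 50.3, 22.4 and 45.6 CPM in control WT, senescent WT, control KO and senescent KO cells. For Hey1 they were Tmem150a (0.12) and Cacng7 (0.13), for Dll1 Pcx (0.28) and Oplah (0.28), for Jag2 Hist1h2be (0.39) and Nptx1 (0.41), and for Hey2 Timm8a1 (0.40) and Sfn (0.41). The matches of Hey2 were poor, since Hey2 spread by only 0.59 around its own mean. Those of Dll1 were loose too, as Dll1 spread by 0.60, while Jag2 spread by 1.77. The libraries share group, genotype and scaling, so such likeness is a description of these 12 libraries.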

How the data were processed

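RNA-seq was made from poly(A) RNA of 12 libraries on a HiSeq instrument, in 4 groups of 3 set by GEO's labels. The authors aligned trimmed paired reads to GRCm38 with STAR and counted unique reads in exons with featureCounts. The deposited values are raw counts per gene, in 1 table per genotype. Annotation release and use of strand are not given in the sources used here. Totals ran from 23923030 to 31736083 counts.

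Symbols and positions were taken from GENCODE vM21 (GRCm38), which matched 48970 symbols of 49315 identifiers. All 12 libraries were fitted together in edgeR 4.0.16 (R 4.3.3) with 1 mean per group, after filterByExpr (17416 genes kept) and TMM scaling, by the robust quasi-likelihood test with Benjamini-Hochberg adjustment over all genes tested. The SE is the log2 fold change divided by the square root of F. The 5 contrasts were senescence in WT, senescence in KO, their difference, and genotype in control and in senescent cells. Scripts were tested on simulated data. Alternatives were other scaling, filters, sample sets, replicate blocks, tools (DESeq2 1.42.0, limma-voom 3.58.1), a fold limit and leaving out each library. Same-numbered libraries did not deviate together over all pairs of groups, so numbers were not taken as pairs. Pairing within a genotype was not excluded.

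The members and all gene lists were chosen with earlier results of these data known. Named genes were the members and the other pathway genes past a log2 fold change of 1, plus Rbpj, chosen after its values were seen.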

Additional observations from a re-analysis of the deposited data

Results flagged for a closer look

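The senescence response differed between genotypes by the edgeR interaction test for 7 named genes, given as the KO minus the WT log2 fold change. It was lower in KO cells for Notch1 (−0.67, SE 0.09, adjusted p 6.60e-05), Notch3 (−0.87, SE 0.18, 0.0015) and Jag1 (−0.44, SE 0.12, 0.0121). It was higher in KO cells for Notch4 (0.67, SE 0.23, 0.0412). Among other pathway genes it was lower for Neurl1b (−1.43, SE 0.25, 0.000401) and higher for Dtx4 (0.86, SE 0.22, 0.00683) and Rbpj (0.35, SE 0.07, 0.00201).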

How the results depend on the processing

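Over the named genes and all alternatives, 1453 values kept their direction and side of the threshold, 22 lost and 12 gained significance and 37 changed sign, all of the last from values that did not pass. Requiring a log2 fold change over 1 left 3 members higher in WT cells, 1 higher and 0 lower in KO cells, 0 higher and 0 lower for the interaction, 0 higher in control KO cells and 1 lower in senescent KO cells. For the other pathway genes it left 1 higher and 2 lower in each genotype, 0 and 1 for the interaction, 0 higher in control and 0 in either direction in senescent KO cells. The shares of all genes at this limit stand in the Results. With at least 1 CPM in 3 libraries, 0 members were lower in WT cells, because Hey2 was not tested. For the interaction, 0 members were higher without a filter and with a replicate block within genotype, and 2 with DESeq2. Of all genes, 1565, 1391 and 1969 were higher in these settings, beside 1609 in the main fit. Replicate numbers were not taken as pairs (correlation of deviations −0.125 to 0.127 for same-numbered libraries, and −0.191 to 0.173 for others). Those ranges pool pairs within and between genotypes. Between control and senescent WT libraries the same-numbered values were 0.015, 0.043 and 0.108, and the others −0.084 to 0.044. In KO cells they were −0.125, 0.045 and −0.095, beside −0.097 to 0.173. Pairing within a genotype was therefore not excluded. The replicate block across all 12 libraries left the counts of members as they were. In senescent cells 2 members (Notch4 and Jag2) were higher in KO with only the 6 libraries compared and 2 (the same) with limma-voom, and 1 (Notch4) with DESeq2. Of all genes, 2551, 2134 and 2462 were higher in these 3 settings, beside 2080 in the main fit. The cause was not tested.

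Leaving out 1 library gave 0 to 1 members lower in WT cells, 0 to 2 higher for the interaction, 1 to 2 higher in control KO cells and 1 to 3 lower in senescent KO cells. For other pathway genes it gave 1 to 5 higher in control and 5 to 8 lower in senescent KO cells. Of all genes, the same fits gave 4273 to 4806 lower in WT cells and 1079 to 1955 higher for the interaction. Between genotypes they gave 911 to 1542 of all genes higher in control KO and 1443 to 2229 lower in senescent KO cells. The lowest count of pathway genes higher in control KO cells (1) came without control WT replicate 1, the fit with 911 of all genes. The lowest count of members lower in senescent KO cells (1) came without senescent KO replicate 3, where 1501 of all genes were lower.

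Signs changed for values near 0. In WT cells Notch1 was 0.081 with upper-quartile scaling and 0.020 with the 1 CPM filter, and Notch2 was 0.074 and 0.013. In KO cells Notch2 was 0.072 with upper-quartile scaling, 0.020 with the 1 CPM filter, 0.0067 with DESeq2's size factors and with DESeq2, and 0.0011 with only 6 libraries. The Notch2 interaction was −0.0024 with upper-quartile scaling, −0.0075 without a filter, −0.00032 with the replicate block across 12 libraries, −0.0045 with that within genotype and −0.0060 with limma-voom. Leaving out 1 library gave −0.024 to 0.033 for Notch1 in WT cells, −0.041 to 0.0083 for Notch2 in WT, −0.081 to 0.076 for Notch2 in KO, −0.068 to 0.089 for its interaction and −0.106 to 0.051 between senescent genotypes. It gave −0.0080 to 0.115 for Jag1 in KO cells, −0.024 to 0.091 for Hes1 between senescent genotypes, −0.29 to 0.55 for Aph1c in KO cells, −0.19 to 0.30 for Aph1c between control genotypes and −0.19 to 0.12 for Dtx4 between these.

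Between 4 and 22 counts per library lay behind Hey2 and 4 to 20 behind Jag2 in control cells, which limits both.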
